A study of Mus musculus with 4 samples.

Results

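Axin2, Nkd1, Rnf43, Znrf3, Apcdd1 and Sp5 are genes that the Wnt pathway switches on and whose proteins act back on the cell that makes them. These 6 genes were chosen by name, from 27514 genes present in all gene tables, and by no cut on their values. Earlier results of these data were known when they were chosen. Their levels were read from single-cell RNA sequencing of small intestinal adenomas, as unique molecular identifiers (UMIs, 1 for each captured transcript copy). A level is given in CPM, the UMIs of a gene per 1000000 UMIs of a class of cells in a library. The study had 4 libraries of C57BL/6 mice labelled male and 11 weeks of age. ApcMin mice (ApcMin/+;Lef1 +/+) gave 2 libraries and VApcMinL mice (ApcMin/+;Lef1 fl/fl; Villin-Cre) gave the other 2. All mice carried the Min allele of the tumor suppressor Apc. VApcMinL mice also had loxP-flanked Lef1 alleles and a Cre recombinase driven by the Villin promoter, which is active in intestinal epithelium and not in stroma or immune cells. Replicate 1 of both genotypes was prepared with kit 2 of the 10x Genomics 3′ chemistry and replicate 2 of both with kit 3. A library held cells dissociated from 3 to 10 pooled tumors without sorting, so it stands for a pool of tumors and holds the neighboring normal tissue too.

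In the Wnt pathway, a destruction complex built on Apc and Axin proteins degrades β-catenin until a Wnt ligand binds its Frizzled and Lrp receptors. Stabilized β-catenin then enters the nucleus and activates genes together with Tcf and Lef factors. Several of these target genes dampen the signal. Axin2 is a scaffold of the destruction complex, and Nkd1 binds Dishevelled, the protein that links the receptor to the complex. Rnf43 and Znrf3 are ubiquitin ligases in the cell membrane that remove Frizzled receptors and that R-spondin inactivates through Lgr receptors. Apcdd1 is a membrane glycoprotein that binds Wnt and Lrp5, and Sp5 is a zinc finger transcription factor that represses other targets. In the normal small intestine, Wnt activity is highest at the crypt base, where Lgr5 stem cells lie, and falls toward the villus. Cells that lose Apc keep β-catenin active without ligand.

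On the mouse assembly GRCm38, Axin2 (ENSMUSG00000000142) lies at chr11:108920349-108950783 on the plus strand, Nkd1 (ENSMUSG00000031661) at chr8:88521354-88594884 on the plus strand, and Rnf43 (ENSMUSG00000034177) at chr11:87662722-87735539 on the plus strand. Znrf3 (ENSMUSG00000041961) lies at chr11:5276324-5444847 on the minus strand and Sp5 (ENSMUSG00000075304) at chr2:70474923-70477729 on the plus strand. The annotation places antisense Gm11670 over Axin2, Gm45496 on the same strand as Nkd1, and 1110028F11Rik within an intron of Rnf43 on its strand. Reads in the shared stretches of these genes cannot be assigned from the tables.

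RefSeq promoter windows, from 250 bases before to 50 bases after a RefSeq start, were matched for Axin2, Nkd1, Rnf43 and Sp5. The Nkd1 window (chr8:88527383-88527682) and both Rnf43 windows (chr11:87662837-87663136 and chr11:87699647-87699946) lie inside the gene spans given above, so they do not cover the outermost starts. They were searched on both strands for the Tcf/Lef motif in the forms CTTTGAA as well as CTTTGAT, together with CTTTGTA as well as CTTTGTT. Of these genes, Sp5 held 2 matches and the others held 0 in this window. Of 32851 mouse windows, 16.9% held at least 1 match and 1.94% at least 2. The 250 bases before Sp5 (GRCm38.p6, chr2:70474673-70474922, plus strand) are shown because they carry both matches, in capitals. The first, 222 bases before the start, is CTTTGTT on the minus strand. The second, 104 bases before the start, is CTTTGAT on the plus strand.
Sp5: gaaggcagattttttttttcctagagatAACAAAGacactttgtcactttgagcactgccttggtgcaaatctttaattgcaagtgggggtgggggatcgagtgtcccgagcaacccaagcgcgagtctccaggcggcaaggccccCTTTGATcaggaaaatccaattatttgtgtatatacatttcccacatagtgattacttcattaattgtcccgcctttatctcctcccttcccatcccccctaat
A match is a run of letters and not a measured binding site.

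Libraries held 44660305 to 128247396 UMIs and 2071 to 4217 cells at the limits used here, which were at least 2000 UMIs and at most 20% mitochondrial UMIs. The mitochondrial limit removed 61.6% of the barcodes over 2000 UMIs in the library labelled ApcMin replicate 2 and 20.4% to 26.5% in the others. The kit 2 libraries shared 9 cell barcodes (0.364% of the smaller), and other pairs shared at most 1. Libraries are called here by what they are labelled, since adenoma-gated cells of kit 2 ran against the label: Lef1 was at 10.7 CPM in ApcMin replicate 1 and 30.9 in VApcMinL replicate 1. In kit 3 it was at 41.5 in ApcMin and 25.6 in VApcMinL. The counts are of 3′ ends and the deleted part of Lef1 was not located here, so a shortened transcript would still be counted. Xist, which is transcribed from the inactive X chromosome, was at 1211 and 335 CPM in the adenoma-gated cells labelled VApcMinL replicate 1 and 2 and at 0.107 and 0.0887 in those labelled ApcMin, although all mice are labelled male. The study's methods name male and female mice in about equal numbers. Xist split by genotype label in both kits, so what set it apart cannot be told apart from genotype in these libraries. What set these values against the labels was not tested. Every direction between genotypes given below rests on these labels.

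Classes were gated on marker genes that are not members. Adenoma cells were undifferentiated epithelial cells with UMIs of Notum, Prox1 or Wif1, which are themselves known Wnt targets in adenomas. Normal crypt cells had Olfm4 or Dmbt1 without these, differentiated cells had markers of enterocytes, goblet, Paneth, tuft or enteroendocrine cells, and stromal cells had fibroblast, endothelial or muscle markers. There were 378, 287, 513 and 1652 adenoma-gated cells in the libraries labelled ApcMin replicate 1, ApcMin replicate 2, VApcMinL replicate 1 and VApcMinL replicate 2. This library order is used for all series of 4 values that follow. Epcam, an epithelial adhesion protein, was at 1692 to 2380 CPM in adenoma-gated cells and at 1923 to 2887 in crypt-gated cells. Ptprc, the pan-leukocyte marker CD45, was at no more than 1.38 in adenoma-gated cells against 201 to 632 in immune cells. Both genes were in the gate lists, so these levels follow in part from the gates and are no separate check of adenoma identity. The crypt gate was uneven between kits. Olfm4, the crypt stem cell marker, was at 10.6 and 2.20 CPM in crypt-gated cells of the kit 2 libraries and at 543 and 760 in those of kit 3, while Dmbt1 was at 1827 to 2032 in all 4. Crypt-gated cells of kit 2 were therefore chosen by Dmbt1 almost alone. Dmbt1 was also at 360 to 778 CPM in enterocytes and at 482 to 928 in goblet cells, so it is not particular to the crypt. The name normal crypt stands for the gate, and the crypt identity of these cells was not tested.

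Adenoma-gated cells held more of Axin2, Nkd1, Rnf43, Znrf3 and Sp5 than normal crypt, differentiated or stromal cells, in every library. In the edgeR quasi-likelihood test with Benjamini-Hochberg adjustment, these 5 genes were higher in adenoma than in crypt cells and than in differentiated cells. Adenoma cells were chosen for the Wnt targets Notum, Prox1 or Wif1, and crypt cells for low levels of them. A higher level of other Wnt targets in adenoma cells is therefore in part fixed by the gates. Against stromal cells only Nkd1 had enough stromal UMIs for a test to be read, since the others passed the filter on low counts through other classes. Of all 13480 genes tested, 20.4% were higher and 30.2% lower in adenoma than in crypt cells, 36.3% higher and 34.4% lower than in differentiated cells, and 28.3% higher and 26.8% lower than in stromal cells. Apcdd1 had too few UMIs for this test. The order of classes was taken over the 7 that had at least 10 cells in every library (adenoma, normal crypt, enterocyte, goblet, fibroblast, muscle and immune). In it adenoma came first for each of the 5 tested genes and did not overlap the class ranked next. Paneth, tuft and enteroendocrine cells were too few to rank, and some of their values reached the adenoma range, as did those of ungated epithelial cells for Rnf43 and Sp5.

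Axin2, the Wnt-induced scaffold of the destruction complex, was at 89.7, 160.5, 120.9 and 108.9 CPM in adenoma cells (mean 120.0 ± 29.9, SD, n = 4, from 834 to 5344 UMIs). In crypt cells it was at 28.2, 21.3, 11.8 and 31.5, and in differentiated cells at 11.8, 12.9, 13.7 and 25.2. The ratio of adenoma to crypt within a library ran from 3.18 in ApcMin replicate 1 to 10.3 in VApcMinL replicate 1. The log2 difference was 2.04 (SE 0.25, adjusted p = 7.10e-06) against crypt and 2.35 (SE 0.25, adjusted p = 7.69e-07) against differentiated cells. Crypt and enterocyte ranges of Axin2 overlapped.

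Nkd1, the Dishevelled-binding inhibitor, had the widest gap to crypt cells among the 5. It was at 170.4, 549.6, 682.5 and 177.7 CPM in adenoma cells (mean 395 ± 261, SD, n = 4) and at 2.94, 2.49, 5.70 and 5.13 in crypt cells, from 17 to 49 crypt UMIs per library. The lowest adenoma library lay far above the highest crypt library, and the ratio within a library ran from 34.6 to 221. The log2 difference was 6.10 (SE 0.41, adjusted p = 2.07e-08) against crypt and 3.63 (SE 0.35, adjusted p = 2.77e-07) against differentiated cells. The study lists Nkd1 among its own markers of Wnt-active proliferating cells in these adenomas. Nkd1 did not enter the gate used here, but the gate genes Notum and Prox1 are on that same list.

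The receptor-removing ligases were also higher in adenoma cells. Rnf43 was at 62.5, 119.5, 79.2 and 112.1 CPM in adenoma cells (mean 93.3 ± 27.0, SD, n = 4) and at 14.7, 23.8, 12.9 and 28.9 in crypt cells. Its adenoma level was 3.88 to 6.12 times the crypt level within a library, with a log2 difference of 1.86 (SE 0.16, adjusted p = 2.84e-07). Both kit 3 libraries were above both kit 2 libraries for Rnf43, in adenoma as in crypt cells. Znrf3 was at 27.6, 59.5, 61.2 and 30.0 in adenoma cells (mean 44.6 ± 18.2, SD, n = 4) and at 8.31, 7.60, 5.05 and 8.48 in crypt cells. Its log2 difference was 2.20 (SE 0.31, adjusted p = 2.92e-05) against crypt and 3.04 (SE 0.32, adjusted p = 7.38e-07) against differentiated cells. Immune cells were the next class for Znrf3, at 14.7, 5.80, 9.68 and 11.4, which overlapped the crypt range.

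Sp5, the transcriptional repressor among the 6, was at 27.4, 158.2, 123.2 and 43.6 CPM in adenoma cells (mean 88.1 ± 62.8, SD, n = 4). It was at 5.37, 4.14, 5.44 and 7.85 in crypt cells and at 14.5, 17.9, 16.5 and 17.8 in enterocytes. ApcMin replicate 2 and VApcMinL replicate 1 stood well above the other 2 adenoma values, while the enterocyte values lay close together. The log2 difference was 3.32 (SE 0.36, adjusted p = 2.30e-06) against crypt and 1.61 (SE 0.32, adjusted p = 3.51e-04) against differentiated cells.

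Apcdd1 (ENSMUSG00000071847, GRCm38, chr18:62922231-62961179, plus strand), the membrane inhibitor that binds Wnt and Lrp5, was rare in every class. Adenoma cells held 3, 17, 3 and 20 UMIs of it, or 0.322, 1.51, 0.277 and 0.407 CPM, and crypt cells held 0 in all 4 libraries. The adenoma value was 3.64 times the level that 3 UMIs would give in crypt cells in ApcMin replicate 2. In VApcMinL replicate 2 it was 1.30 times that level. These ratios leave out the counting error of the adenoma UMIs, so they are not lower bounds. The kit 2 adenoma values were not distinguishable from that limit at this depth. The fibroblast range, 0 to 1.49 CPM, overlapped the adenoma range.

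**Figure D1:**
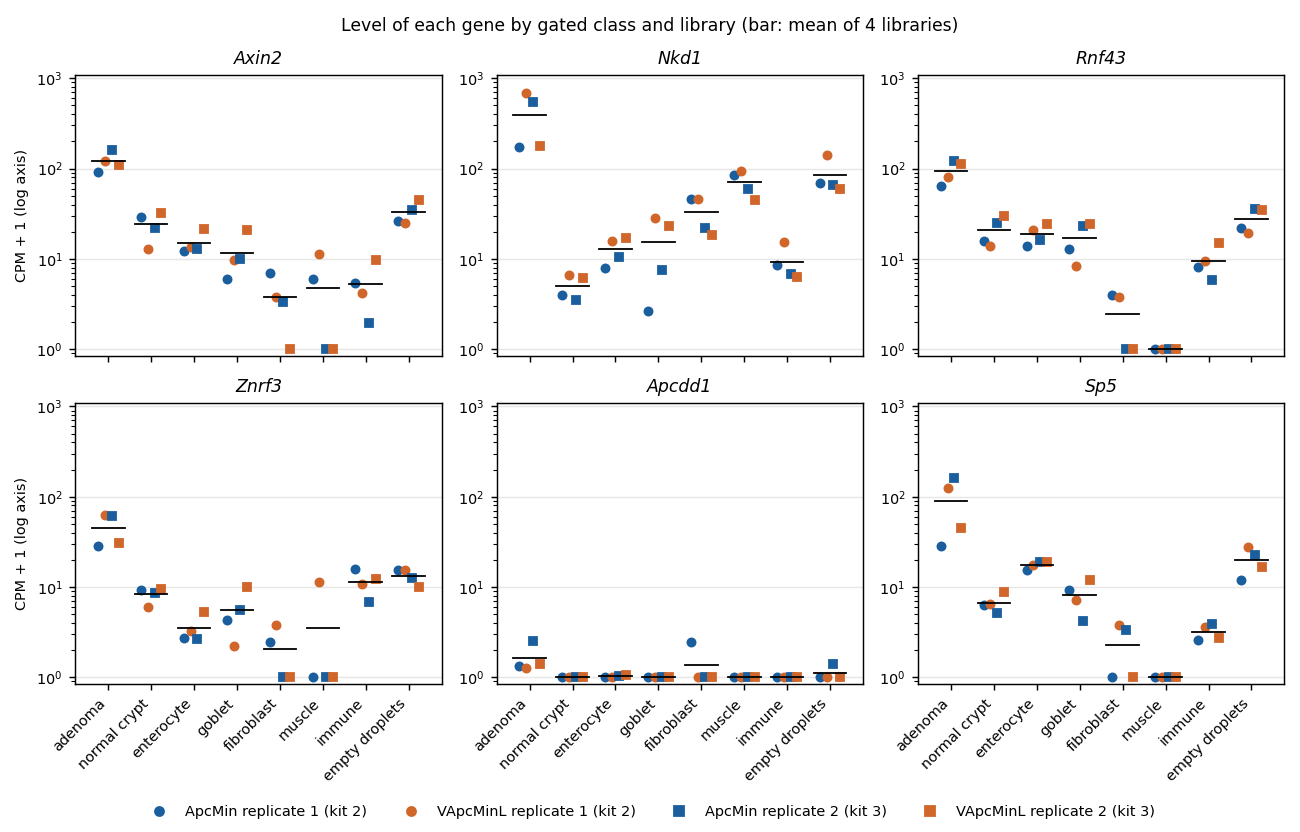
Level of each gene (vertical log axis, CPM plus 1) by gated class (horizontal axis), with 1 point per library and the bar at the mean of the 4 libraries. Adenoma points lie above those of the other classes shown for Axin2, Nkd1, Rnf43, Znrf3 and Sp5, and Apcdd1 stays at or below 1.51 CPM.

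Free RNA was read from barcodes of 10 to 100 UMIs. In them Axin2 was at 25.2, 33.5, 24.1 and 44.1 CPM and Nkd1 at 68.5, 64.0, 142 and 58.5. The crypt, enterocyte and immune levels of Nkd1 were below these values in every library, and so were those of Axin2 except in crypt cells of ApcMin replicate 1, at 28.2. Rnf43, Znrf3 and Sp5 averaged 26.8, 12.3 and 18.9 CPM in these barcodes over the 4 libraries. Their means were lower in crypt cells (20.1, 7.36 and 5.7) and enterocytes (18.0, 2.48 and 16.7). They were also lower in all differentiated cells (19.9, 3.54 and 16.6) and immune cells (8.6, 10.4 and 2.21). Low levels in these classes can therefore hold free RNA, and its part was not tested. This limit also holds for the order of these classes below adenoma, and for differences between crypt-gated and differentiated cells.

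The size of the adenoma-to-crypt difference depended on which cells stood for the crypt. A stricter gate asked for Olfm4 together with Lgr5 or Ascl2, which mark crypt base stem cells, and held 19, 37, 4 and 81 cells. In these cells Axin2 was at 146 (95% counting interval 110 to 189), 58.6 (47.6 to 71.3), 75.1 (24.4 to 175) and 86.0 (74.4 to 99.0) CPM. These values overlapped those of adenoma cells, and ApcMin replicate 1 was higher in the strict crypt cells than in its adenoma cells. The log2 difference of Axin2 between adenoma and strict crypt cells was 0.48, with an adjusted p of 0.261 in edgeR. Znrf3 was at 39.0, 16.6, 0 and 17.1 in the strict crypt cells and its difference of 1.12 also lost the call, with an adjusted p of 0.0605 in edgeR. The value in VApcMinL replicate 1 comes from 4 cells only.

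Nkd1, Sp5 and Rnf43 remained higher in adenoma cells than in the strict crypt cells. Nkd1 was at 5.20, 2.37, 30.0 and 10.1 CPM in the strict crypt cells, a log2 difference of 5.61. The value of 30.0 came from 2 UMIs. Sp5 was at 20.8, 11.2, 30.0 and 21.1, a difference of 2.09, and Rnf43 at 36.4, 41.4, 30.0 and 55.3, a difference of 1.13. Of the 5 tested genes, 3 were thus called higher than in the strict crypt cells, beside 18.7% of all 12346 genes in that fit.

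**Figure D2:**
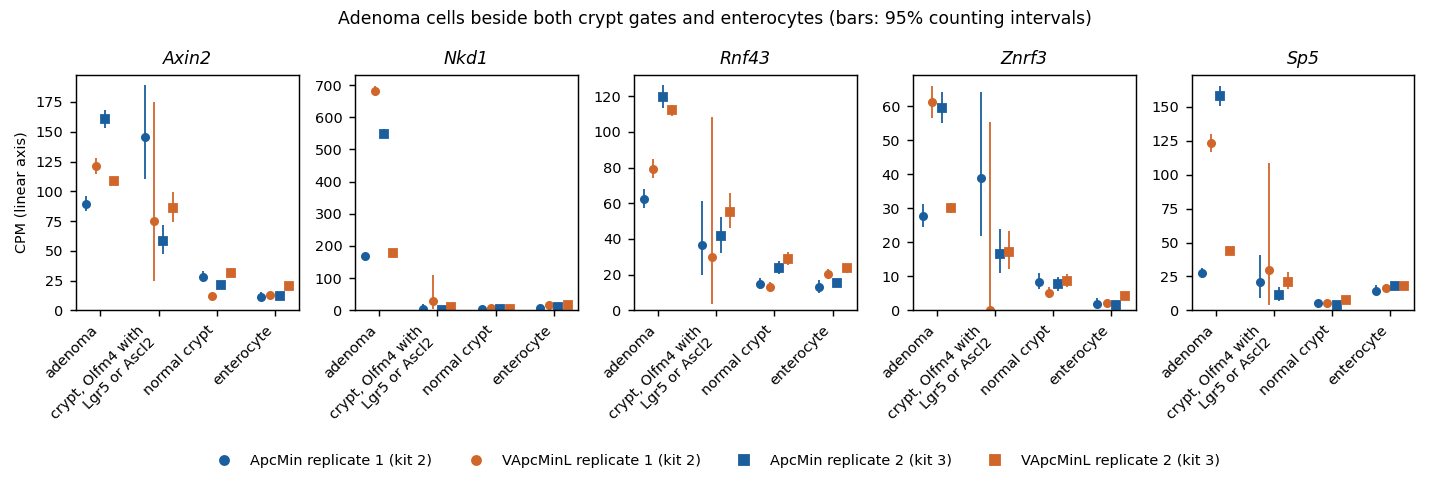
Levels in CPM (vertical linear axes, different for each gene) in adenoma cells, strict crypt cells, main crypt cells and enterocytes, with 1 point per library and bars for 95% Poisson counting intervals. For Axin2 the strict crypt points, from 58.6 to 146, overlap the adenoma points, while those of Nkd1, from 2.37 to 30.0, stay below all adenoma points.

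Between normal crypt and differentiated cells the 5 genes did not move one way. Nkd1 was lower in crypt cells by a log2 difference of -2.47 (SE 0.39, adjusted p = 6.95e-05), with 2.94, 2.49, 5.70 and 5.13 CPM in crypt against 12.4, 14.1, 24.3 and 27.2 in differentiated cells. Sp5 was lower by -1.72 (SE 0.36, adjusted p = 8.57e-04), and both calls were made with kit 2 or kit 3 alone as well. The 170 Paneth, tuft and enteroendocrine cells among 3449 differentiated cells held 515 of their 1287 Nkd1 UMIs. In enterocytes alone Nkd1 was at 6.99, 9.42, 15.0 and 16.1 CPM, still above the crypt value of each library. Against enterocytes alone the log2 differences were -1.89 for Nkd1 (adjusted p = 7.13e-04) and -1.84 for Sp5 (adjusted p = 5.01e-04). Of all genes tested, 28.2% were lower in crypt cells and 27.7% higher. Znrf3 was higher in crypt cells by 0.84 (SE 0.34, adjusted p = 0.0472), a call lost in 11 of 15 alternatives, among them leaving out ApcMin replicate 1 (adjusted p = 0.275), ApcMin replicate 2 (0.182) or VApcMinL replicate 1 (0.103).

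Axin2 (0.31, adjusted p = 0.321) and Rnf43 (-0.23, adjusted p = 0.266) did not pass the edgeR test between main crypt and differentiated cells. With the strict crypt gate they did, and both were higher in crypt cells. Rnf43 had no stable direction, since with kit 2 alone it was called lower in main crypt cells (-0.69, adjusted p = 0.0318). With the strict gate Axin2 differed by 1.97 (adjusted p = 4.53e-05), Znrf3 by 2.0 and Rnf43 by 0.61 (adjusted p = 0.0186) on the log2 scale. Nkd1 stayed lower in strict crypt cells (-1.87), and Sp5 was no longer called (-0.40, adjusted p = 0.48). Of all genes in that fit, 22% were higher and 31.7% lower in strict crypt cells. Nkd1 was thus below differentiated cells with both crypt gates. Crypt values of Nkd1 rest on 128 UMIs in all.

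Paneth cells, the secretory cells of the crypt base, carried all genes of the set except Apcdd1. Their Axin2 level was 54.4, 75.5, 59.7 and 86.5 CPM and their Nkd1 level 115, 264, 157 and 116. These come from 7, 15, 15 and 35 cells, so they were not ranked. The same cells held the adenoma gate genes Notum, at 90.6, 86.0, 146 and 59.3 CPM, and Prox1, at 193, 304, 116 and 143, against at most 4.14 and 2.20 in crypt cells. The part of this in their Axin2 and Nkd1 levels was not tested. Tuft cells, a chemosensory lineage, held Nkd1 at 191, 228, 513 and 194 from 6, 7, 4 and 22 cells. Axin2 in tuft cells was between 0 and 39.4. In enteroendocrine cells, which make gut hormones, Nkd1 was at 0, 0, 863 and 89.5 from 11, 12, 5 and 31 cells.

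Stromal cells held nearly none of the receptor-removing ligases or Sp5. Over 384 stromal cells there were 3 UMIs of Rnf43, 5 of Znrf3 and 2 of Sp5, and no fold is given against these. Axin2 was at 6.04, 1.58, 3.92 and 0 CPM, from 12 UMIs, below the adenoma value of each library. Nkd1 was the exception. It was at 40.0, 26.9, 35.3 and 28.5 CPM in stromal cells, above all 4 crypt values, and at 84.4, 58.9, 92.2 and 44.2 in muscle cells. The stromal values lay below the free RNA level of Nkd1 in every library, and the muscle value exceeded it in ApcMin replicate 1 only. The part of free RNA in these values was not tested. Among the 7 ranked classes muscle came next to adenoma for Nkd1, from 10 to 29 cells per library, and its range overlapped that of fibroblasts. Adenoma cells exceeded stromal cells in Nkd1 by 3.48 (SE 0.40, adjusted p = 3.11e-06).

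The comparison of genotypes asks whether loss of the transcription factor Lef1 changes these genes in Apc-mutant cells. None of the 5 tested genes was called between VApcMinL and ApcMin adenoma cells in a fit with 1 residual degree of freedom. The log2 differences (VApcMinL over ApcMin) were -0.07 for Axin2 (SE 0.29), 0.18 for Nkd1 (SE 1.06), 0.12 for Rnf43 (SE 0.20), 0.07 for Znrf3 (SE 0.57) and 0.13 for Sp5 (SE 1.21). None had an unadjusted p under 0.05 in edgeR, and DESeq2 called none. Over all genes, edgeR called 0% of 12563 in adenoma cells, with 25 at an unadjusted p under 0.05, and DESeq2 called 3. With SEs above 1, the values for Nkd1 and Sp5 leave room for large differences either way.

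The kit pairs differed in opposite directions. In kit 2 the VApcMinL library was higher for all 5 genes, and in kit 3 it was lower for all 5. Nkd1 differed by 2.0 (95% counting interval 1.92 to 2.08) in kit 2 and by -1.63 (-1.68 to -1.58) in kit 3. Sp5 differed by 2.17 (1.97 to 2.37) and -1.86 (-1.95 to -1.77), and Znrf3 by 1.15 (0.94 to 1.36) and -0.98 (-1.12 to -0.85). The differences of Axin2, 0.43 and -0.56, and of Rnf43, 0.34 and -0.09, were smaller.

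ApcMin replicate 2 and VApcMinL replicate 1 were thus the high adenoma libraries for Nkd1, Znrf3 and Sp5. Lef1 followed the same direction, with log2 differences of 1.52 in kit 2 and -0.70 in kit 3. Notum, a secreted Wnt inactivator used in the adenoma gate, was at 124, 345, 468 and 113 CPM in the same order. The part of the gate, of Lef1 itself or of the pooled tumors in these differences was not tested.

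**Figure D3:**
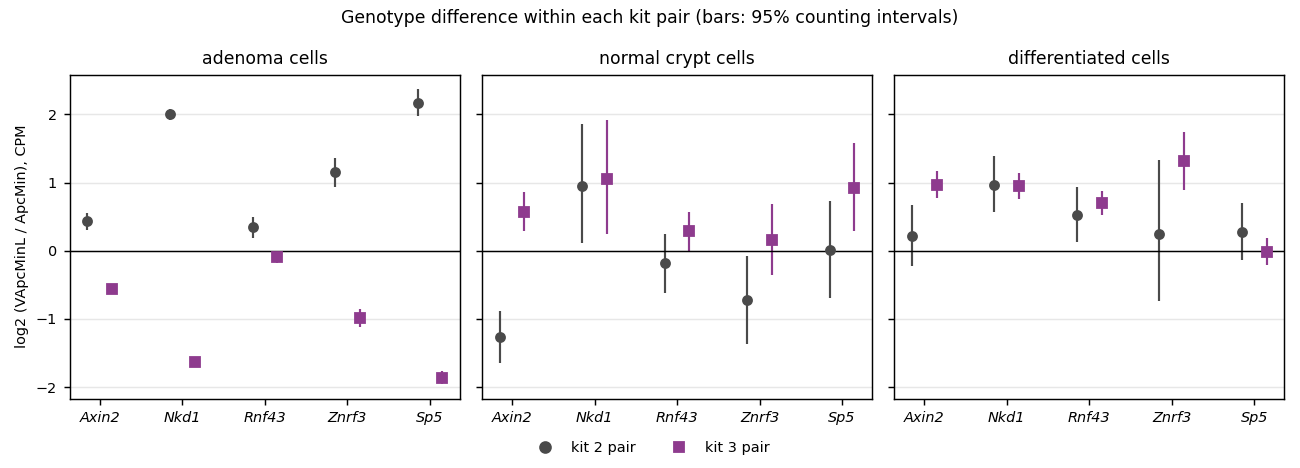
Log2 ratio of VApcMinL to ApcMin CPM (vertical axis) for 5 genes within the kit 2 pair (circles) and the kit 3 pair (squares), with 95% counting intervals, in adenoma, normal crypt and differentiated cells. In adenoma cells all 5 kit 2 points lie above 0 and all 5 kit 3 points below it, from 2.17 to -1.86 for Sp5, while Nkd1 lies near 1 in both pairs in crypt and differentiated cells.

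In crypt and differentiated cells the kit pairs of Nkd1 went the same way, whereas in stromal cells they did not (-0.18 in kit 2 and 0.084 in kit 3). Nkd1 was higher in the VApcMinL library by 0.95 in kit 2 and 1.05 in kit 3 in crypt cells, and by 0.97 and 0.95 in differentiated cells. The edgeR estimates were 0.98 in crypt cells (SE 0.36, unadjusted p = 0.0280) and 0.87 in differentiated cells (SE 0.33, unadjusted p = 0.0275), and neither passed adjustment over all genes. Of all genes tested, 0.0181% were called in crypt, 0.0248% in differentiated and 0.0624% in stromal cells. Axin2, Rnf43 and Znrf3 were also higher in the differentiated cells of both VApcMinL libraries, by 0.22 and 0.97, 0.52 and 0.70, and 0.25 and 1.31 in kit 2 and kit 3. None passed the test, and in crypt cells their signs differed between kits. A test of whether the genotype difference in adenoma cells departed from that in differentiated cells gave -0.78 for Nkd1 (SE 0.68), -0.63 for Axin2 (SE 0.37), -0.44 for Rnf43, -0.83 for Znrf3 and -0.02 for Sp5, with no call in edgeR or DESeq2 for these genes and no unadjusted p under 0.05.

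The share of adenoma cells with a UMI of each gene was compared too. With every adenoma cell thinned to 2000 UMIs, Nkd1 was detected in 29.4%, 57.5%, 61.6% and 29.8% of cells, and Axin2 in 15.1%, 29.6%, 19.9% and 17.4%. Immune cells, which should lack these genes, gave 1.25% to 2.67% for Nkd1 and 0 to 2.92% for Axin2. Rnf43 was detected in 12.2%, 24.7%, 12.3% and 20.5% of adenoma cells, Sp5 in 6.61%, 19.9%, 22.2% and 8.35%, and Znrf3 in 5.29%, 11.2%, 13.1% and 5.51%. ApcMin replicate 2 and VApcMinL replicate 1 had the highest shares of Nkd1, Znrf3 and Sp5, as they had the highest levels. The shares of these 5 genes overlapped between genotypes. Apcdd1 was found in 0 and 0 of the thinned ApcMin cells and in 0.195% and 0.0605% of those of VApcMinL (exact permutation p = 0.33, the smallest possible). The mean difference between VApcMinL and ApcMin was 2.29 percentage points for Nkd1 and -3.69 for Axin2. Two-sided exact permutation tests of these gave p = 0.667 and p = 1, with 2 libraries against 2, and the Benjamini-Hochberg values over the 6 genes were 1.

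The genes were detected together in single adenoma cells. Among cells thinned to 5000 UMIs, at least 2 of the 6 genes were found in 40.3%, 77.2%, 68.8% and 52.8% of adenoma cells. The same held for 2.65% to 5.25% of crypt cells, 3.00% to 4.12% of enterocytes and 0 to 1.71% of immune cells. At least 4 were found in 2.12%, 20.6%, 17.3% and 4.33% of adenoma cells. ApcMin replicate 2 and VApcMinL replicate 1 were again the high libraries. These shares follow from the levels of the single genes as well and were not tested for dependence between genes.

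**Figure D4:**
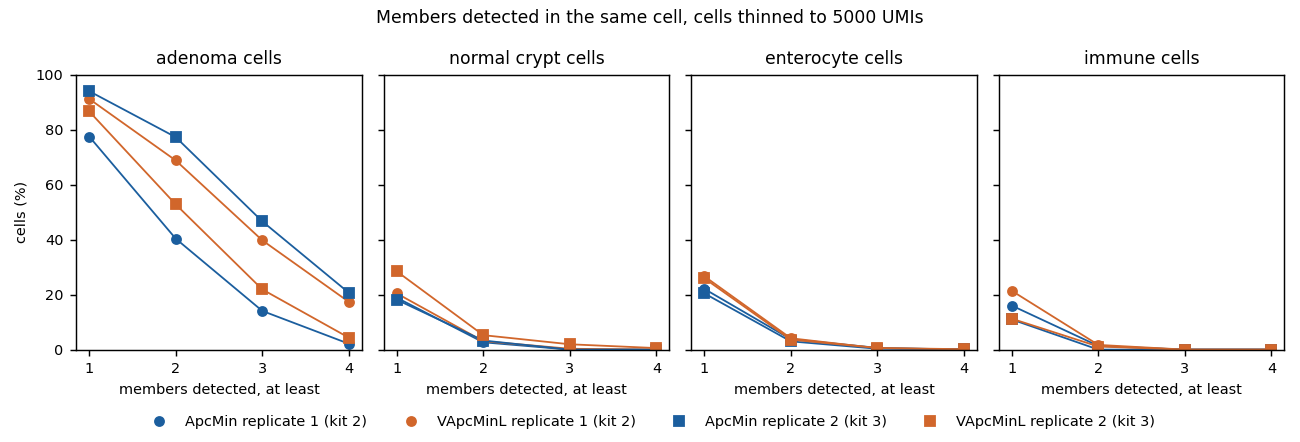
Percent of cells (vertical axis) in which at least 1, 2, 3 or 4 of the 6 genes were detected (horizontal axis) after thinning to 5000 UMIs, with 1 line per library. At 2 genes the adenoma lines lie between 40.3% and 77.2% and all crypt, enterocyte and immune lines at or below 5.25%.

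A separate gate of stomach-type genes such as Gkn3 and Muc6, which gastric glands normally make and the Wnt-target gate does not use, was set beside it. Nkd1 was at 224, 590, 710 and 227 CPM in cells of both gates, at 120, 375, 371 and 148 in cells of the Wnt-target gate only, and at 82.9, 70.2, 81.8 and 84.3 in cells of the stomach-type gate only. The 4 libraries lay far apart in the cells of both gates and close together in the last group. Sp5 and Znrf3 also lay close together there, at 32.3 to 44.9 and 19.9 to 21.6 in stomach-type cells only. Axin2 was at 92.7, 170, 120 and 107 in cells of both gates, at 86.8, 119, 128 and 110 in cells of the Wnt-target gate only, and at 62.6, 54.8, 39.5 and 66.3 in cells of the stomach-type gate only. Undifferentiated epithelial cells of neither gate were taken without the crypt-gated cells. In them Axin2 was still at 77.0, 42.3, 35.0 and 86.8, while Nkd1 was at 52.3, 32.8, 18.4 and 58.2. Since the gate used Wnt targets, a low level in cells outside it is in part fixed by the choice of cells.

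**Figure D5:**
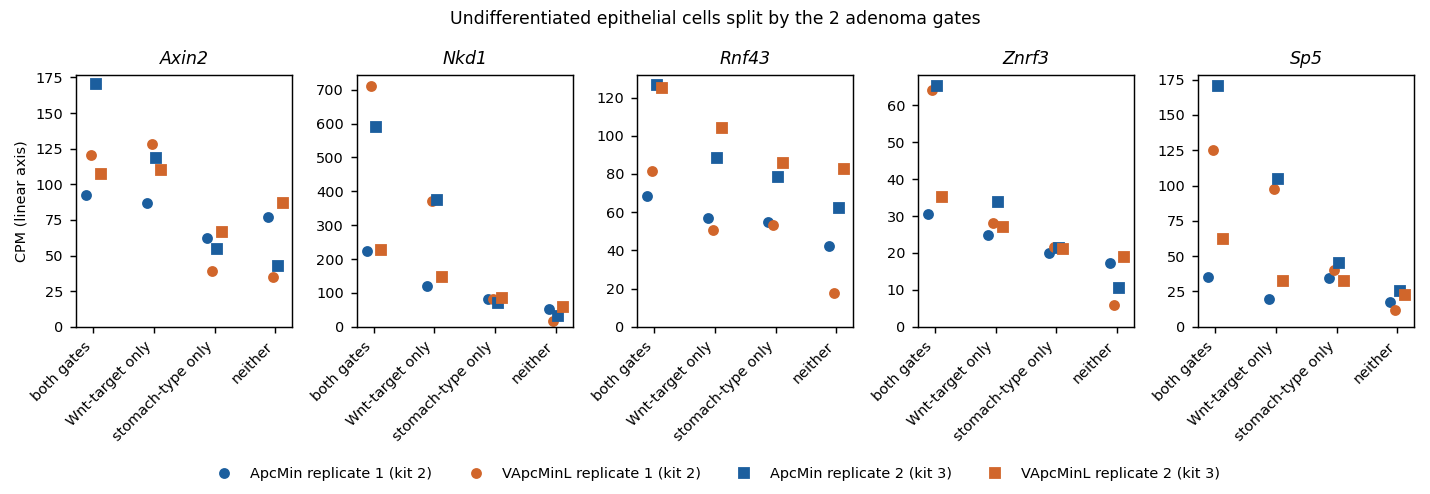
Levels in CPM (vertical linear axes, different for each gene) of undifferentiated epithelial cells split by whether they passed the Wnt-target gate, the stomach-type gate, both or neither, with 1 point per library. The cells of neither gate leave out the crypt-gated cells. Nkd1 falls from 224 to 710 in cells of both gates to 70.2 to 84.3 in cells of the stomach-type gate only, where the 4 libraries lie close together.

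Other genes of the pathway moved in both directions between classes. Of 40 listed genes of the core machinery (receptors, Dishevelled, destruction complex, nuclear cofactors), 39 were tested, and 13 were higher and 4 lower in adenoma than in crypt cells, with a median log2 difference of 0.35 beside -0.13 over all genes. Of 28 listed other feedback and target genes, 22 were tested, and 13 were higher and 4 lower, with a median of 0.97. These shares stand beside 20.4% higher and 30.2% lower among all genes. Dkk3, a Dickkopf family protein, was at 12.4, 82.5, 91.6 and 16.2 CPM in adenoma cells and at 0.173 to 0.777 in crypt cells, a log2 difference of 6.02 (SE 0.56). Lef1 exceeded crypt cells by 5.57 (SE 0.38). Fzd10, a Frizzled receptor, was at 2.69, 14.7, 18.5 and 3.16 in adenoma cells with 1 UMI in all crypt cells. Pygo1, a cofactor of β-catenin, was at 0.645, 1.86, 1.57 and 0.204 with 0 UMIs in crypt cells. Dkk3 and Fzd10 had the same high and low libraries as Nkd1.

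Against differentiated cells 18 core genes were higher and 10 lower, and 17 feedback and target genes were higher and 3 lower. The lists again held 39 and 22 tested genes, and of all genes tested 36.3% were higher and 34.4% lower. Dkk2, which binds Lrp receptors, was higher in adenoma cells by 4.01 (SE 0.75). Tgfbi, an extracellular matrix protein, was lower by -4.97 (SE 0.20), at 3.12 to 5.05 CPM in adenoma and 71.8 to 116 in differentiated cells. Against stromal cells 9 core genes were higher and 11 lower, and 11 feedback and target genes were higher and 5 lower. Of all genes tested 28.3% were higher and 26.8% lower than in stromal cells, and the core counts lay near these shares. Sfrp1, a secreted Wnt binder, was at 167 to 264 CPM in stromal and at most 0.860 in adenoma cells. Ascl2, the stem cell transcription factor, was at 58.0, 31.9, 45.04 and 60.3 CPM in adenoma cells, with 1, 0, 1 and 0 UMIs in stromal cells.

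Between crypt and differentiated cells 5 core genes were higher and 12 lower, and 10 feedback and target genes were higher and 4 lower. These counts stand beside 27.7% higher and 28.2% lower among all genes tested. Sfrp2 was higher in crypt cells (3.24, SE 0.73). Tgfbi was lower (-3.70, SE 0.20), as were Fzd10 (-3.80) and Dkk3 (-2.80). Between genotypes edgeR called none of either list in any class. The genes with the smallest p in edgeR were Pygo2 in adenoma cells (log2 difference -0.31, SE 0.23), Fzd5 in crypt cells (-0.31, SE 0.15), Dkk2 in differentiated cells (3.90, SE 1.37) and Lrp5 in stromal cells (-0.88, SE 0.47).

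Across 29 sums of gated classes by library, each gene was set beside 11090 others by the Pearson correlation of log2 levels. The sums share libraries and depth, so these values are a description. Axin2 was most like Tst (0.903), Arhgdig (0.900) and Sox21 (0.899), and Rnf43 most like Tm7sf2 (0.920), Myrf (0.908) and Marveld2. Nkd1 was most like Tubb4a, Ggh and Ctxn1 (0.871), and Sp5 most like Tmtc4 (0.888), Casp6 (0.852) and Cfi (0.835). Znrf3 was most like 2310040G24Rik (0.861), Blvrb (0.858) and Arhgdig (0.844), and Apcdd1 most like Npb (0.749), Gas1 (0.659) and Ppp2r2b (0.653). Within the set the highest pair was Axin2 and Rnf43 (0.849), and Nkd1 and Rnf43 reached 0.423.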

How the data were processed

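The authors deposited raw UMI counts, whole numbers of transcript copies per gene and barcode, for all barcodes. The study's methods name Cell Ranger 2.1.1 on an mm10 (GRCm38) reference, and the kit 3 file headers name a later release, so its gene tables list 31053 genes against 27998 in kit 2. Genes with 1 identifier common to all tables were kept, and the others held 0.192% to 0.568% of the UMIs. Intronic or antisense handling is not given in the sources used here. The members and lists were chosen with earlier results of these data known. Gate limits were set after viewing gate genes only: at least 2 UMIs and 1 per 10000 of Notum, Prox1 and Wif1 for adenoma, 5 per 10000 of Olfm4 and Dmbt1 for crypt, 100 per 10000 of enterocyte and 300 of goblet markers, 100 of Paneth and 20 of tuft or enteroendocrine markers, and 20 of a lineage list. Doublets were removed only in an alternative, with Scrublet in scanpy 1.11.5.

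Counts were summed per library and class, because cells are not replicates, and tested with edgeR 4.0.16 (quasi-likelihood, TMM, Benjamini-Hochberg, called at 0.05, expression filter at 10), with gate genes left out. Class contrasts had the library as a block. Genotype contrasts had the kit as a block, since the labels give 1 kit per replicate number. Deviations of libraries with the same number correlated at r = 0.138 over 12563 genes, and with 1 residual degree of freedom these fits are weak. Nothing in the labels ties a library to 1 animal, so genotype p-values measure the spread between pools of tumors. Those of the class contrasts measure how class differences within a library vary from library to library. DESeq2 1.42.0 was an alternative. On simulated counts of log2 size 1.5 the class contrast recovered 200 of 200 changed genes with 12 false calls (12660 genes) and the adenoma genotype contrast 192 of 200 with 7 (12424 genes). This holds for the simulated dispersion of 0.02 only. Shares have Clopper-Pearson and levels Poisson 95% intervals. A limit beside 0 is 3 counts. Intervals and limits cover counting error only. Named by rule were the 6 genes, up to 4 called list genes per contrast with the largest change (or, with none called, those of smallest p), and 3 likeness genes per member over sums of at least 20 cells. Kit 2 or kit 3 alone, and enterocytes alone in place of all differentiated cells, were alternatives added after seeing the data.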

Additional observations from a re-analysis of the deposited data

Results flagged for a closer look

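In adenoma cells the VApcMinL library was above the ApcMin library in kit 2 and below it in kit 3 for each gene, a difference between kit pairs that was not tested. The log2 differences were 0.43 and -0.56 for Axin2, 2.0 and -1.63 for Nkd1, 0.34 and -0.092 for Rnf43, 1.15 and -0.98 for Znrf3, and 2.17 and -1.86 for Sp5.

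Of 48 sets of 4 libraries (a gene in a class), 7 held 1 library far from the other 3 by Dixon's gap (critical value 0.83). The sets are nested in part, and those with 1 UMI in all reach this gap by construction. No rate expected by chance is therefore set beside the 7. VApcMinL replicate 2 was high for Axin2 in enterocytes (20.5 CPM) and in all differentiated cells (25.2), and for Znrf3 in differentiated cells (6.30). Apcdd1 was high in adenoma cells of ApcMin replicate 2 (1.51) and in fibroblasts (1.49) and all stromal cells (0.756) of ApcMin replicate 1, the stromal values resting on 1 UMI. Znrf3 was high in muscle cells of VApcMinL replicate 1 (10.2), also from 1 UMI.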

How the results depend on the processing

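All 5 tested genes stayed higher in adenoma than in crypt and differentiated cells under the alternatives run, except that 3 were called against the strict crypt gate. Between crypt and differentiated cells Axin2 ranged from -0.044 (without ApcMin replicate 1) to 0.41 without 1 library, and Rnf43 was 0.61 with the strict gate and -0.69 with kit 2 alone, called in opposite directions. Genotype fits within a class without 1 library leave 0 residual degrees of freedom and give only the remaining kit pair, with no test. In adenoma cells these ran from -0.56 to 0.43 for Axin2, -1.63 to 2.0 for Nkd1, -0.092 to 0.34 for Rnf43, -0.98 to 1.15 for Znrf3 and -1.86 to 2.17 for Sp5. In crypt cells they ran from -1.26 to 0.57 for Axin2, -0.19 to 0.28 for Rnf43 and -0.72 to 0.16 for Znrf3. In differentiated cells they ran from -0.016 to 0.27 for Sp5, and in stromal cells from -0.18 to 0.084 for Nkd1. The genotype difference of adenoma against differentiated cells was instead fitted on both classes of the libraries left. Without 1 library it ran from -1.75 to 0.22 for Nkd1, -1.75 to 0.24 for Znrf3 and -0.82 to 0.92 for Sp5. Without the replicate block Sp5 in adenoma cells was -0.044, and the block changed no call of the 5 genes. Thinning to 2000 UMIs gave -0.068 for Rnf43 in adenoma, 0.37 for Axin2 in crypt and -0.17 for Sp5 in differentiated cells. The strict gate gave 0.15 for Axin2 in crypt cells. A mitochondrial limit of 10% gave -0.011 for Rnf43 in crypt and -0.0067 for Sp5 in differentiated cells, and removing doublets gave -0.058 for the latter. DESeq2 gave 0.025 and no filter 0.036 for the Sp5 difference of genotype effects. Share differences without 1 library ran from -10.96 to 3.58 percentage points for Axin2, -13.6 to 18.2 for Nkd1, -8.34 to 4.23 for Rnf43, -2.71 to 4.84 for Znrf3, 0.0605 to 0.195 for Apcdd1 and -4.88 to 8.99 for Sp5. At 5000 UMIs Rnf43 was 1.45 and Apcdd1 -0.474, and without thinning Znrf3 was -1.19 and Apcdd1 -2.11. The causes were not tested. Over all genes, 6822 calls against crypt cells became 2879 after thinning, 3502 with the strict gate, 4171 with kit 2 alone and 3714 with kit 3 alone. Thinning moved 9525 calls against differentiated cells to 5883, 7418 against stromal cells to 3721 (4234 with kit 3 alone), and 7536 between crypt and differentiated cells to 4569 (4895 with kit 3 alone). Genotype calls ranged from 0 to 3 in adenoma, 0 to 5 in crypt, 1 to 16 in differentiated and 0 to 52 in stromal cells.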
